A study of Mus musculus with 4 samples.

Results

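The mRNAs of 10 inhibitory receptor genes were measured in TCRβ+CD8αα+ intraepithelial lymphocytes (IELs) of the mouse small intestine, with and without T cell-specific deletion of the histone demethylase gene Kdm6b. The genes were chosen as named inhibitory receptors, and no measured value entered the rule, although earlier results of these data were known: Pdcd1, Lag3, Havcr2, Tigit, Ctla4, Cd160, Btla, Cd96, Cd200r1, and Tnfrsf14, which encodes the partner bound by CD160 and BTLA. They were 10 of the 19339 genes listed. The control group was C57BL/6 mice with loxP-flanked Kdm6b and no Cre (Kdm6bfl/fl, 2 libraries, replicates 1 and 3). The Kdm6b-deficient group was Kdm6bfl/fl-CD4Cre mice on the same strain (2 libraries, replicates 1 and 3), in which the Cd4-driven Cre acts from the late double-negative stage of thymocytes onward, so that the deletion is not limited to the IELs sorted here. The loxP-flanked alleles are shared by both groups, and the ages of the mice were not given in the sources used here. Cells were sorted as CD45+CD4-TCRβ+CD8α+CD8β-. Each library holds RNA pooled from several mice of 1 genotype, so the spread between libraries is a spread between pools.

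Inhibitory, or checkpoint, receptors restrain T cells that have met antigen. Most carry tyrosine motifs in the cytoplasmic tail that recruit phosphatases such as SHP-1 and SHP-2, while others act by competing with an activating receptor for the same ligand. TCRβ+CD8αα+ IELs arise from thymic precursors that meet self antigen, live in contact with the gut epithelium and express several such receptors in the resting state. The receptors fall into groups by ligand. TIGIT and CD96 bind nectin-family proteins, for which CD226 is the activating competitor. CD160 and BTLA bind HVEM, the product of Tnfrsf14. CTLA-4 competes with CD28 for CD80 and CD86, and PD-1 binds PD-L1 and PD-L2. The remaining receptors are LAG-3, which binds MHC class II and FGL1, TIM-3 (Havcr2), which binds galectin-9 and CEACAM1, and CD200R1, the receptor of CD200.

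Levels are in fragments per kilobase of transcript scaled to library size (FPKM), which corrects for gene length and allows levels to be set between genes. In control replicates 1 and 3, Kdm6b itself was at 16.5 and 16.01 FPKM. The libraries labelled as Kdm6b-deficient held 18.2 FPKM (replicate 1) and 11.1 FPKM (replicate 3). The targeted mRNA was therefore not lower in deficient replicate 1 than in either control, and genotype is given throughout as labelled. These values are per gene, so they cannot show whether the loxP-flanked part was lost, which would take exon-level data. The 8 T cell core genes (Cd3d, Cd3e, Cd3g, Cd247, Ptprc, Lck, Cd8a and Itgae) were abundant in all 4 libraries, with summed levels of 5308, 4349, 4203 and 3044 FPKM in control replicates 1 and 3 and deficient replicates 1 and 3. In the same order, the summed level of 22 epithelial markers was 3037, 8308, 11667 and 12553 FPKM (1366, 4332, 3998 and 10572 FPKM without the antimicrobial genes Reg3b and Reg3g), their mean log2(FPKM + 1) was 5.43, 6.97, 6.83 and 7.95, and the summed level of 10 myeloid markers was 720, 460, 801 and 1003 FPKM. Cd8b1 was at or near 0, at 0, 0.90, 1.64 and 0.73 FPKM, while Cd4, whose protein was excluded by the sort, stood at 30.55, 10.13, 30.47 and 3.17 FPKM. Epithelial RNA thus differed among libraries, and deficient replicate 3 held the most epithelial and the least T cell core RNA. In bulk RNA, fewer cells of a type and less RNA per cell cannot be told apart. The 4 libraries were of like depth by an approximate estimate from the smallest steps between values, between 0.865 and 1.01 times that of control replicate 1.

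All 10 receptor genes were detected in every library, but at very different levels. Cd96, Cd160 and Tigit were the most abundant, with means over the 4 libraries of 320, 206 and 178 FPKM. Lag3, Cd200r1 and Ctla4 followed at 93.1, 82.2 and 82.1 FPKM, then Tnfrsf14 at 38.6 FPKM and Pdcd1 at 25.1 FPKM. Havcr2 and Btla were low, at 7.205 and 1.795 FPKM. In this order, only Tnfrsf14 and Pdcd1, and Havcr2 and Btla, were neighbours whose values did not overlap over all 4 libraries. Cd96 was above Cd160 in 4 of 4 libraries. Cd160 and Tigit did not differ beyond their spread, with Cd160 the higher in 2 of 4 libraries, and neither did Lag3 and Cd200r1 or Cd200r1 and Ctla4, each ordered as above in 3 of 4 libraries. Summed over the 10 genes, the level was 1374 and 1057 FPKM in control replicates 1 and 3 and 1043 and 662 FPKM in deficient replicates 1 and 3. Cd96 supplied 30.3% of that sum in each control library, and 30.7% and 34.1% in deficient replicates 1 and 3. Tigit supplied 18.3%, 17.4% and 18.0% in all libraries but deficient replicate 3, where it supplied 13.4%.

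**Figure D1:**
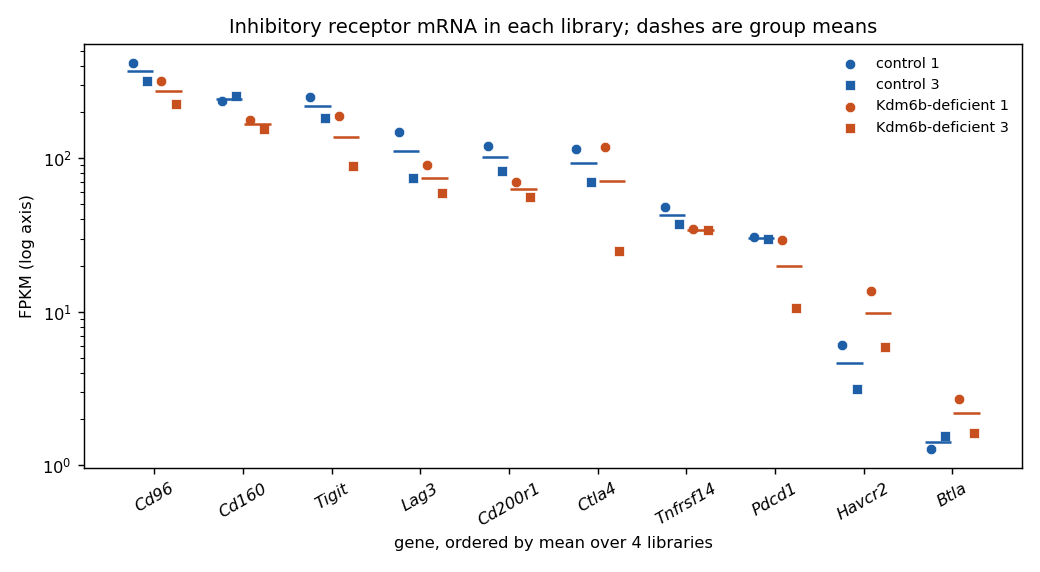
FPKM on a log axis for each of the 10 genes, ordered by mean level. Blue points are the control libraries, orange points the Kdm6b-deficient libraries (circles replicate 1, squares replicate 3), and dashes are group means. Cd96 is the highest gene in every library and Btla the lowest. The deficient points of Cd160 and Cd200r1 lie below both control points, while the deficient replicate 3 points of Ctla4, Pdcd1 and Tigit are far below the other 3 libraries.

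The regions around the start sites of the 3 most abundant receptors are shown because these genes make up most of the receptor mRNA and because all their windows share 1 short motif. A RefSeq window (GRCm38.p6) from 250 bases before to 50 bases after the start was on hand for 8 of the 10 genes, in 9 windows since Cd160 has 2 starts. The 8 do not include Lag3 and Cd200r1. Capitals mark the Runx motif ACCACA, or TGTGGT where it lies on the opposite strand. The windows are read 5′ to 3′ along the gene and all lie on the minus strand: Cd96 at chr16:46120199-46120498, the upstream Cd160 start at chr3:96829302-96829601, the downstream Cd160 start at chr3:96814472-96814771, and Tigit at chr16:43664135-43664434.
Cd96: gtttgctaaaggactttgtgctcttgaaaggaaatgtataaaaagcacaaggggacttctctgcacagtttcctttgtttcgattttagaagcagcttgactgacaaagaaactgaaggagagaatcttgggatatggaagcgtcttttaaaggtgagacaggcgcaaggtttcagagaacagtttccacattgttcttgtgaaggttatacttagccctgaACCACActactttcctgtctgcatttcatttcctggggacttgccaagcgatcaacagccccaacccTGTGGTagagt
Cd160, upstream start: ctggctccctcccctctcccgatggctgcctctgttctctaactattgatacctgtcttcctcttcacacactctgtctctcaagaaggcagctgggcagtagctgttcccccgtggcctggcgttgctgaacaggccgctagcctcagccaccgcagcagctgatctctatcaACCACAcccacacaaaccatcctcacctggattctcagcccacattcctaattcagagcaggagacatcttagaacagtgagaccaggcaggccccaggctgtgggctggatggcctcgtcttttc
Cd160, downstream start: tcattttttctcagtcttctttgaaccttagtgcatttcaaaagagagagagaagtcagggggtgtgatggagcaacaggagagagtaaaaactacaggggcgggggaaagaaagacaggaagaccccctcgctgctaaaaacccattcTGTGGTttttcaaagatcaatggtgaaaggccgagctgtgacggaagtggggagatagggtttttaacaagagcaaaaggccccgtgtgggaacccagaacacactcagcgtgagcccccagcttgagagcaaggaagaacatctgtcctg
Tigit: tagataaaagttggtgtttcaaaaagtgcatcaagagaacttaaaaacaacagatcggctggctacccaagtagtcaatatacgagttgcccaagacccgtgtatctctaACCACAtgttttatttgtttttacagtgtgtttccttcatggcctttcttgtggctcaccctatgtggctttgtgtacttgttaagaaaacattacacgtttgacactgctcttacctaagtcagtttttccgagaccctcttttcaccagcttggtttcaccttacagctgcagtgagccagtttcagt

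The Runx motif was present in 6 of the 9 receptor windows (Cd96, both starts of Cd160, Tigit, Havcr2 and Btla) and in 16.7% of all 32544 windows of the same length. Cd96 held it on both strands. An NFAT motif, GGAAAA on either strand, was found in the windows of Ctla4, Tigit and Tnfrsf14 and in 23.3% of all windows. The AP-1 motif TGANTCA was found in the Havcr2 window alone, against 7.79% of all windows, and the T-box motif GGTGTGA in the downstream Cd160 window alone, against 3.95%. Pdcd1 held none of these 4 motifs. The Runx and T-box motifs, and the T-box and AP-1 motifs, share end letters, so that neighbouring matches can overlap. A match describes the sequence and not factor binding. The Cd160, Cd96 and Tigit windows held 6, 6, 4 and 5 CpG dinucleotides, taking the upstream Cd160 start before the downstream one, against a median of 7 over all windows.

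Between genotypes, most receptor mRNAs were measured at lower levels in the Kdm6b-deficient libraries, but no difference passed the test. On the log2(FPKM + 1) scale the difference, deficient minus control, was negative for 8 of 10 genes and positive for Havcr2 and Btla. The signs held under every scaling tried except scaling to T cell genes, which turned Tnfrsf14 to 0.083. The median difference over the 10 genes was -0.54, while that over all 12009 genes tested was 0.000965 and that over the 8 T cell core genes was -0.52. Without deficient replicate 3 the median over the 10 was -0.19. By limma with Benjamini-Hochberg adjustment over all genes tested, none of the 10 passed an adjusted p of 0.05, nor did any other gene (0.0%). At an unadjusted p under 0.05, 2 of the 10 (Cd160 and Cd200r1, both lower) were counted, against 5.35% of all genes. The T cell core had 2 of 8 at this threshold, both lower. In 5 of the 10 (Pdcd1, Cd160, Cd96, Tnfrsf14 and Cd200r1), both deficient libraries were below both controls, against 18.6% of all genes and 5 of the 8 T cell core genes. Btla alone had both deficient libraries above both controls, against 18.4% of all genes. None of the 10 was past a log2 fold change of -1 (0.441% of all genes) or of 1 (6.2%) in this fit. Havcr2 was past 1 with pseudocounts of 0.1 (1.02) and 0.01 (1.03), with T cell scaling (1.22), with the epithelial covariate (1.69), without control replicate 1 (1.28), without deficient replicate 3 (1.44) and between deficient replicate 1 and control replicate 3 (1.82). On the negative side, Pdcd1 (-1.43), Tigit (-1.27) and Ctla4 (-1.82) were past -1 without deficient replicate 1, and Lag3 (-1.02) and Ctla4 (-1.06) without control replicate 3. Without deficient replicate 1, 8 of the 10 had the remaining deficient library below both controls, as had 39.4% of all genes tested, and without deficient replicate 3 it was 5 of the 10 and 30.1%. With the libraries scaled to Cd3d, Cd3e, Cd3g and Ptprc, which moved the median of all genes to 0.36, both deficient libraries were below for Cd96 and Cd200r1 (3.12% of all genes tested under this scaling), Cd96 only at 310.5 against 310.4, and above for Havcr2 and Btla (37.2%).

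**Figure D2:**
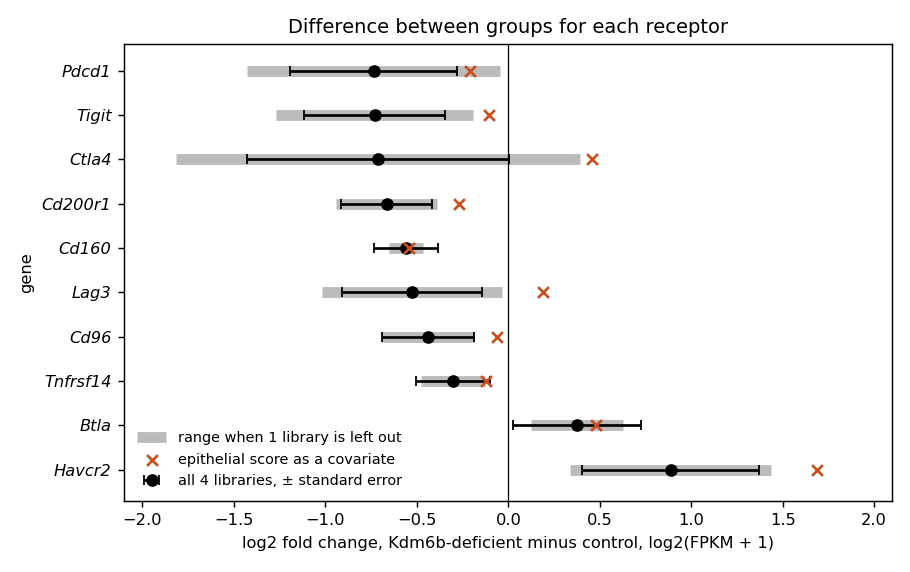
Log2 fold change of each gene, deficient minus control. Black points with bars are the fit over all 4 libraries with its standard error, grey bands span the 4 fits that each leave out 1 library, and crosses are the fit with the epithelial score as a covariate. The band of Cd160 is narrow, from -0.65 to -0.47, while that of Ctla4 runs from -1.82 to 0.39 and crosses 0.

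Cd96 and Tigit encode receptors that share nectin-family ligands with the activating receptor CD226. Cd96 (Entrez 84544, GRCm38 chromosome 16, 46035652-46120248) measured 416 and 320 FPKM in control replicates 1 and 3 and 320 and 226 FPKM in deficient replicates 1 and 3. Control replicate 3 and deficient replicate 1 were almost equal, so the groups were apart only by the margin between 319.80 and 319.71 FPKM. The log2 fold change was -0.44 (SE 0.25, limma adjusted p = 0.755), ranging from -0.69 to -0.19 when 1 library was left out, and it was -0.05 scaled to T cell genes and -0.06 with the epithelial score as a covariate. Tigit (Entrez 100043314, chromosome 16, 43626137-43665125) measured 251 and 184 FPKM in controls and 188 and 88.5 FPKM in deficient replicates 1 and 3. The groups overlapped, since deficient replicate 1 lay above control replicate 3. Its log2 fold change was -0.73 (SE 0.39, limma adjusted p = 0.755), and -0.19 without deficient replicate 3 and -1.27 without deficient replicate 1. It was -0.10 with the epithelial score as a covariate and 0.03 between deficient replicate 1 and control replicate 3, the libraries of closest epithelial score. Cd226 measured 22.9, 21.9, 25.4 and 16.4 FPKM in control replicates 1 and 3 and deficient replicates 1 and 3, well under the level of either receptor. Within libraries, the ratio of Tigit to Cd226 was 10.96 and 8.38 in controls and 7.405 and 5.41 in deficient libraries, and that of Cd96 to Cd226 was 18.15 and 14.6 in controls and 12.6 and 13.8 in deficient libraries. Both ratios were lower in each deficient library than in each control, by 0.60 and 0.31 on the log2 scale. With 1 library left out, the log2 differences lay between -0.84 and -0.36 for Tigit to Cd226 and between -0.47 and -0.15 for Cd96 to Cd226. Among the ligands, Nectin2 measured 5.98 and 19.94 FPKM in controls and 23.42 and 56.25 FPKM in deficient libraries, a difference of 1.63 (SE 0.64, limma adjusted p = 0.755). Nectin2 was lowest in control replicate 1 and highest in deficient replicate 3, as was the epithelial score, and the part of epithelial RNA in it was not tested. Pvr, the other main ligand, named here after its values were seen, was at 5.43, 5.50, 6.92 and 5.34 FPKM and overlapped.

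Cd160, Btla and Tnfrsf14 form a receptor and partner group, HVEM being the shared partner. Cd160 (Entrez 54215, chromosome 3, 96798763-96829351), a receptor of IELs and natural killer cells, measured 236 and 254 FPKM in control replicates 1 and 3 and 177 and 155 FPKM in deficient replicates 1 and 3. Both deficient libraries were below both controls, and the control and deficient pairs were each close together. The log2 fold change was -0.56 (SE 0.17, unadjusted p = 0.0208 and adjusted p = 0.755 by limma), and it lay between -0.65 and -0.47 when any 1 library was left out. With the epithelial score as a covariate it was -0.54, and between deficient replicate 1 and control replicate 3 it was -0.52. Scaled to T cell genes it was -0.17, with overlapping groups. Relative to Cd3e, a T cell receptor chain, Cd160 stood at 0.468 and 0.722 in controls and 0.495 and 0.511 in deficient libraries. The deficient libraries thus lay between the controls once Cd160 was set against this T cell gene. Tnfrsf14 (Entrez 230979, chromosome 4, 154918487-154928620) measured 48.2 and 37.6 FPKM in controls and 34.4 and 34.3 FPKM in deficient libraries, with a log2 fold change of -0.30 (SE 0.20, limma adjusted p = 0.763) that ranged from -0.48 to -0.13 when 1 library was left out. Both deficient libraries were just under the lower control. Btla (Entrez 208154, chromosome 16, 45223705-45252895), a receptor best known from B cells and conventional T cells, was low, at 1.28 and 1.55 FPKM in controls and 2.72 and 1.63 FPKM in deficient libraries. Both deficient libraries were above both controls, deficient replicate 3 by less than 0.1 FPKM, and the log2 fold change was 0.38 (SE 0.35, limma adjusted p = 0.809), between 0.13 and 0.63 when 1 library was left out. The sum of 8 B and plasma cell markers, cells that carry BTLA, was 62.8, 35.2, 91.7 and 34.8 FPKM in the same order and was likewise highest in deficient replicate 1. The sort for TCRβ would remove such cells, and their part in the Btla level was not tested.

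Ctla4 and Pdcd1 encode the classical checkpoint receptors CTLA-4 and PD-1. Ctla4 (Entrez 12477, chromosome 1, 60909025-60915832) measured 115 and 70.5 FPKM in control replicates 1 and 3 and 118 and 24.8 FPKM in deficient replicates 1 and 3. The highest and the lowest value were both in the deficient group. The log2 fold change was -0.71 (SE 0.72, limma adjusted p = 0.822), and it was 0.39 without deficient replicate 3 and -1.82 without deficient replicate 1. The sign also turned with the epithelial score as a covariate (0.46) and between deficient replicate 1 and control replicate 3 (0.74). Pdcd1 (Entrez 18566, chromosome 1, 94038305-94052553) was nearly constant at 30.6 and 30.01 FPKM in controls and 29.3 FPKM in deficient replicate 1, and was 10.65 FPKM in deficient replicate 3. The groups did not overlap, but 1 library carried the difference, with a log2 fold change of -0.74 (SE 0.46, limma adjusted p = 0.760) that became -0.05 without deficient replicate 3 and -1.43 without deficient replicate 1. Genes of conventional CD4 T cells were low in that library too. Cd4 and Cd40lg, the latter encoding CD40 ligand, measured 3.17 and 1.30 FPKM there against 10.1 to 30.55 and 6.26 to 18.9 FPKM in the other 3 libraries. Cd28, the costimulatory competitor of CTLA-4, measured 29.6 and 15.6 FPKM in controls and 48.8 and 3.28 FPKM in deficient replicates 1 and 3, and Icos, another costimulatory receptor, measured 23.8, 11.4, 29.5 and 1.39 FPKM in the same order. Foxp3, which defines regulatory T cells, was at 1.79, 2.35, 2.08 and 1.67 FPKM. Ctla4, Cd28, Icos, Cd4 and Cd40lg were each lowest in deficient replicate 3, while Foxp3 was near the same low level in all 4. The part of sort-excluded CD4 T cells in the Ctla4 and Pdcd1 values was not tested. Among the ligands, Cd86 measured 9.53 and 5.63 FPKM in controls and 19.2 and 9.92 FPKM in deficient libraries, and Pdcd1lg2, which encodes PD-L2, measured 7.01, 4.96, 4.71 and 1.98 FPKM. Cd274, which encodes PD-L1 and is named here after its values were seen, measured 48.3 and 27.6 FPKM in controls and 48.2 and 25.3 FPKM in deficient libraries. It overlapped almost exactly, with a log2 fold change of -0.06 (SE 0.40).

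Lag3, Cd200r1 and Havcr2 encode the remaining receptors. Lag3 (Entrez 16768, chromosome 6, 124904359-124912434) measured 149 and 74.8 FPKM in control replicates 1 and 3 and 90.05 and 59.0 FPKM in deficient replicates 1 and 3. The groups overlapped, and the control libraries differed from each other by more than the deficient ones did. The log2 fold change was -0.53 (SE 0.38, limma adjusted p = 0.771), and -0.04 without control replicate 1 and -1.02 without control replicate 3. It turned positive with the epithelial score as a covariate (0.19) and between deficient replicate 1 and control replicate 3 (0.26). Cd200r1 (Entrez 57781, chromosome 16, 44765736-44794977) measured 121 and 82.2 FPKM in controls and 69.8 and 56.0 FPKM in deficient libraries. Both deficient libraries were below both controls, also after scaling to T cell genes, at 95.25 and 79.8 against 67.7 and 75.9. The log2 fold change was -0.67 (SE 0.25, unadjusted p = 0.0402 and adjusted p = 0.755 by limma), ranging from -0.94 to -0.39 when 1 library was left out, and it was -0.28 after that scaling and -0.27 with the epithelial score as a covariate. Cd200, its ligand, measured 10.2 and 6.43 FPKM in controls and 4.94 and 5.16 FPKM in deficient libraries, and was also lower in both (log2 fold change -0.59, SE 0.32, limma adjusted p = 0.755). Havcr2 (Entrez 171285, chromosome 11, 46454931-46481255) measured 6.10 and 3.15 FPKM in controls and 13.7 and 5.87 FPKM in deficient libraries. It was highest in deficient replicate 1, and deficient replicate 3 lay just under control replicate 1, so the groups overlapped. The log2 fold change was 0.89 (SE 0.48, limma adjusted p = 0.755), and 0.34 without deficient replicate 1. With the epithelial score as a covariate it was 1.69 with an adjusted p of 0.037 by limma, a fit that leaves 1 residual degree of freedom among 4 libraries. TIM-3 is also carried by macrophages and dendritic cells. Itgax, a marker of these cells, measured 8.09, 5.04, 13.2 and 6.50 FPKM in control replicates 1 and 3 and deficient replicates 1 and 3, and Pirb, a myeloid inhibitory receptor, 4.13, 2.61, 7.94 and 7.73 FPKM. Like Havcr2, both were lowest in control replicate 3 and highest in deficient replicate 1. Of the 10 myeloid markers, 9 were lowest in control replicate 3, while 6 were highest in deficient replicate 1, 3 in deficient replicate 3 and 1 in control replicate 1, and their sum was highest in deficient replicate 3. Of the 9 that were tested, 5 had both deficient libraries above both controls, against 18.4% of all genes tested. The sort for TCRβ and CD8α would remove macrophages and dendritic cells, and the part of myeloid RNA in the Havcr2 level was not tested.

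**Figure D3:**
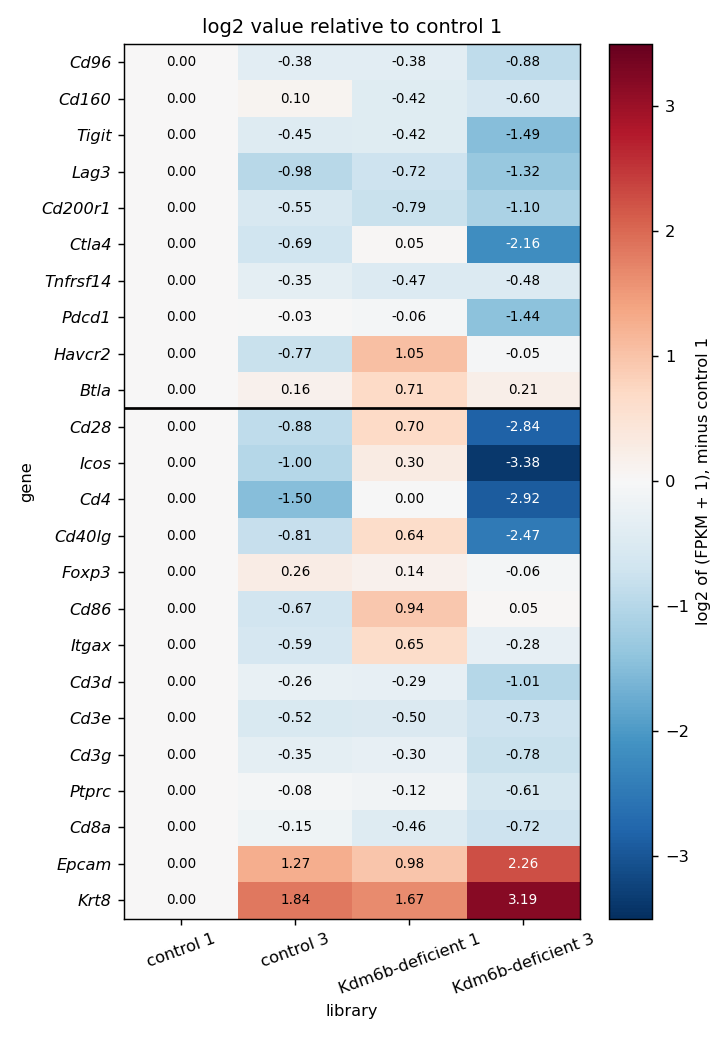
Log2(FPKM + 1) of each gene minus its value in control replicate 1, by library, with the receptor genes above the black line and comparison genes below. Blue is lower and red is higher than control replicate 1. Ctla4 (-2.16), Cd28 (-2.84), Icos (-3.38) and Cd4 (-2.92) share a low value in deficient replicate 3, Havcr2 (1.05) and Cd86 (0.94) a high value in deficient replicate 1, and Epcam and Krt8 are highest in deficient replicate 3.

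Ratios between receptor genes within a library do not depend on the total amount of T cell RNA where both genes come from the T cells. Of 12 gene pairs, 3 ratios were lower in both deficient libraries than in both controls, 2 were higher, and 7 overlapped. Of single genes tested, 18.6% had both deficient libraries below both controls and 18.4% above. No such share was computed over other gene pairs, and several of the 12 pairs have a gene in common. The smallest two-sided p an exact permutation test can give with 2 libraries against 2 is 0.333, and adjusted over the pairs it was 0.8, so no ratio could pass the test. Beside the ratios to Cd226, that of Cd160 to Btla was 184.5 and 164 in controls and 65.0 and 95.3 in deficient libraries. That of Btla to Tnfrsf14 was 0.0266 and 0.0413 in controls and 0.0790 and 0.0476 in deficient libraries. Both of these ratios turn on the low Btla level. Havcr2 relative to Pdcd1 stood at 0.200 and 0.105 in controls and 0.467 and 0.551 in deficient libraries, a log2 difference of 1.62. The 2 deficient libraries reached a like ratio by different routes, since Havcr2 was high in replicate 1 and Pdcd1 was low in replicate 3. The ratio of Ctla4 to Cd28 ran from 2.43 in deficient replicate 1 to 7.57 in deficient replicate 3, with the controls at 3.87 and 4.52 in between. Both genes were lowest in deficient replicate 3, Cd28 by more than Ctla4. The ratio of Cd96 to Cd3e was between 0.744 and 0.909 in all 4 libraries, and overlapped.

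**Figure D4:**
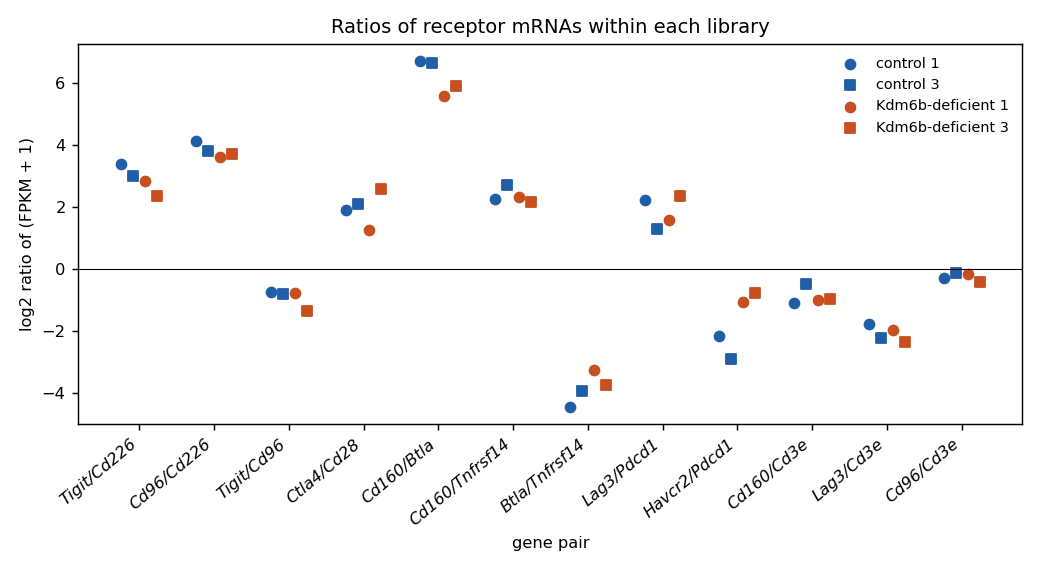
Log2 ratio of FPKM + 1 for 12 gene pairs in each library (blue control, orange Kdm6b-deficient; circles replicate 1, squares replicate 3). Orange lies wholly below blue for Tigit/Cd226, Cd96/Cd226 and Cd160/Btla and wholly above it for Btla/Tnfrsf14 and Havcr2/Pdcd1.

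Genes around the receptors were described by lists. None of their genes reached an adjusted p of 0.05 by limma. At an unadjusted p under 0.05, 2 genes of inhibitory signalling, 3 regulators, 1 gene of CTLA-4 trafficking and 0 costimulatory genes were lower, against 1.55% of all genes tested. On the higher side there were 2 ligands and 2 other inhibitory receptors, against 3.8% of all genes tested. Of 16 genes of inhibitory signalling, the phosphatases, adaptors and ligases that act below the receptors, 12 had a negative difference and 9 had both deficient libraries below both controls, with a median of -0.40. Without deficient replicate 3 the count was again 12 and the median -0.17, and under T cell scaling 9 were negative with a median of -0.04. The share with both deficient libraries below was 18.6% over all genes tested and 5 of 8 in the T cell core, whose median was -0.52. Dok1, an adaptor that dampens Ras signalling, measured 94.7 and 68.1 FPKM in controls and 51.9 and 47.75 FPKM in deficient libraries (log2 fold change -0.68, SE 0.22, limma adjusted p = 0.755). Cblb, a ubiquitin ligase that sets the need for costimulation, measured 30.8 and 22.5 FPKM in controls and 18.3 and 15.3 FPKM in deficient libraries. Both genes were lower in each deficient library than in each control. At the other end of the list, Dgka, a diacylglycerol kinase, overlapped, at 49.2, 36.9, 57.95 and 35.5 FPKM.

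Of 15 transcriptional regulators tested, 14 had a negative difference and 8 had both deficient libraries below both controls (18.6% of all genes tested), with a median of -0.49. Without deficient replicate 3, 8 of the 15 were negative and the median was -0.12, and under T cell scaling, which moved the median of all genes to 0.36, 9 were negative with a median of -0.13. The T cell core, with 5 of 8 below both controls, had a median of -0.52. Ikzf2, which encodes Helios, a factor of agonist-selected T cells, measured 41.9 and 33.9 FPKM in controls and 23.4 and 17.4 FPKM in deficient libraries (log2 fold change -0.87, SE 0.24, limma adjusted p = 0.755). Nr4a2, a nuclear receptor induced by T cell receptor signals, measured 218 and 231.5 FPKM in controls and 159 and 124 FPKM in deficient libraries, and Runx3, the CD8 lineage factor, 101, 69.1, 67.6 and 40.3 FPKM in control replicates 1 and 3 and deficient replicates 1 and 3. All 3 were lower in both deficient libraries, Runx3 by a narrow margin. Tox, a regulator of exhausted T cells named here after its values were seen, measured 101 and 89.5 FPKM in controls and 69.9 and 61.8 FPKM in deficient libraries, and was likewise lower in both. Eomes was between 0.02 and 0.16 FPKM and was not tested.

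The 8 costimulatory genes all had a negative difference with a median of -0.48, which became 2 of 8 and 0.15 without deficient replicate 3, but only 1 had both deficient libraries below both controls (18.6% of all genes tested). The 16 ligands and partners tested, of 18, had a median of 0.24. Of these, 7 were higher in both deficient libraries (18.4% of all genes tested) and 2 lower in both (18.6%). Without deficient replicate 3 their median was 0.43. Under T cell scaling, which moved the median of all genes to 0.36, it was 0.60. Ceacam1, a ligand of TIM-3 that epithelial cells also express, measured 19.3 and 48.2 FPKM in controls and 77.8 and 92.4 FPKM in deficient libraries (log2 fold change 1.44, SE 0.43, limma adjusted p = 0.755). It too was lowest in control replicate 1 and highest in deficient replicate 3, but was higher in deficient replicate 1 than in control replicate 3, where the epithelial scores were 6.83 and 6.97. The part of epithelial RNA in it was not tested. Of 6 genes of CTLA-4 trafficking, 3 had a negative difference and the median was -0.02. Trat1, which encodes an adaptor that brings CTLA-4 to the surface, measured 43.6 and 43.2 FPKM in controls and 30.2 and 22.02 FPKM in deficient libraries (log2 fold change -0.73, SE 0.22, limma adjusted p = 0.755), lower in both. Of 15 genes listed as other inhibitory receptors, 9 had a negative difference, with a median of -0.12. Without deficient replicate 3 it was 5 with a median of 0.41. That list also holds Entpd1, Nt5e, Tnfrsf25 and Cd200r4, which do not encode inhibitory receptors and are named here after their values were seen. Cd244a, which encodes the SLAM family receptor 2B4, measured 216 and 174 FPKM in controls and 164.5 and 109 FPKM in deficient libraries. Pilra, a myeloid receptor, measured 6.98 and 6.20 FPKM in controls and 17.5 and 11.3 FPKM in deficient libraries. Cd5 and Cd6, which restrain T cell receptor signals, were lowest in deficient replicate 3, at 3.38 and 3.84 FPKM, against 19.3 to 37.9 and 17.3 to 43.4 FPKM in the other 3 libraries. They thus shared the pattern of Cd28 and Icos.

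**Figure D5:**
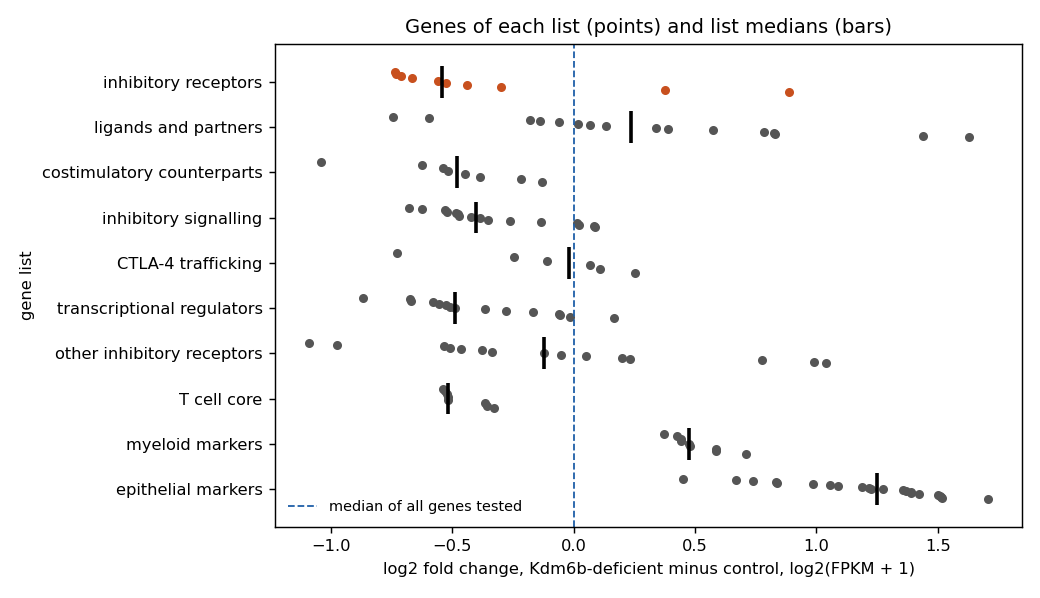
Log2 fold change, deficient minus control, of each tested gene in 10 lists (points), with list medians (black bars) and the median of all genes tested (dashed line). The median of the inhibitory receptors (-0.54) lies beside that of the T cell core genes (-0.52), and those of the myeloid and epithelial markers (0.47 and 1.25) lie on the other side of 0.

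In the fit over all 4 libraries without scaling, Pdcd1 had the largest absolute difference among receptors with a group mean of at least 10 FPKM. Its lead over Tigit was narrow (-0.736 against -0.731), and Tigit led under quantile normalization (-0.787 against -0.782). Without deficient replicate 3, Pdcd1 was at -0.05. The genes whose centred log2 profiles over the 4 libraries were nearest to Pdcd1 were Fgf13, H4c2 and Zfp3, at Euclidean distances of 0.171, 0.173 and 0.248. Fgf13 measured 6.45, 6.30, 5.28 and 1.47 FPKM in control replicates 1 and 3 and deficient replicates 1 and 3, so it too was near level in 3 libraries and low in deficient replicate 3. With 4 libraries, a like profile describes these pools only.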

How the data were processed

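TCRβ+CD8αα+ IELs were sorted from the small intestine of control and Kdm6b-deficient mice, and RNA pooled within a genotype was sequenced on a HiSeq instrument. Per the submitters' processing notes and the study's methods, the authors mapped reads to mm10 (GRCm38.p5) with HISAT (version not given in the sources used here) and Bowtie2 2.2.5 and computed FPKM with RSEM 1.2.8. The deposited FPKM values, 1 file per library, were used as given. They hold no read counts, so no count model was run. Genes carry Entrez identifiers, of which 18467 of 19339 matched a symbol in RefSeq (GRCm38.p6), and 758 were predicted transcripts. Positions and windows around start sites also came from RefSeq.

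Genes that reached 1 FPKM in 2 or more libraries (12009) were compared by limma 3.58.1 (R 4.3.3, eBayes with a trend) on log2(FPKM + 1), with a pseudocount of 1, which understates differences of low genes, and Benjamini-Hochberg adjustment over all genes tested. Ratios of gene pairs were compared by a two-sided exact permutation test (Python 3.11.15, numpy 2.4.6). The limma script was tested on simulated data. The labels do not say whether replicates are separate pools of separate mice, so p-values measure only the spread between these libraries. FPKM do not state the depth, which was estimated approximately, and no counting intervals can be given.

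The genes, lists and tests were chosen with earlier results of these data known. Named genes are the 10 receptors, up to 3 genes at either end of each list, genes of the ratio pairs, the marker lists, Kdm6b, and the 3 genes most like the receptor of largest absolute difference among those with a group mean of at least 10 FPKM. Any others are said to be named after their values were seen. Alternatives were pseudocounts of 0.1 and 0.01, no filter or a filter of 5 FPKM, median-of-ratios, quantile and T cell gene scaling, a replicate block, limma without a trend, the mean of 22 epithelial markers as a covariate, and leaving out each library. A comparison of deficient replicate 1 with control replicate 3, closest in epithelial score, was added after seeing the data. The NK cell markers summed to 41.25, 30.1, 46.9 and 27.1 FPKM and the stromal and endothelial markers to 16.9, 15.5, 14.45 and 12.9 FPKM in control replicates 1 and 3 and deficient replicates 1 and 3.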

Additional observations from a re-analysis of the deposited data

How the results depend on the processing

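Same-numbered libraries of the 2 groups deviated together (correlation 0.56 across 12009 genes), but the labels do not say what the numbers mark, and with 2 pairs the numbers were not taken as pairing. With the replicate block, 1019 genes in place of 0 had an adjusted p under 0.05 by limma, among them Tigit (-0.73, adjusted p = 0.0213), Cd160 (-0.56, adjusted p = 0.0336) and Cd200r1 (-0.67, adjusted p = 0.0196). With the epithelial covariate 117 genes passed, including Havcr2 (1.69), while Lag3 turned to 0.19 and Ctla4 to 0.46. Deficient replicate 1 against control replicate 3, chosen after seeing the data, gave 0.26 for Lag3, 0.03 for Tigit and 0.74 for Ctla4. T cell scaling turned Tnfrsf14 to 0.083 and left 2 receptors below and 2 above both controls in place of 5 and 1 (3.12% and 37.2% of all genes tested). Leaving out 1 library, which sets 1 against 2 and so is not of the same form, gave 5 to 8 below (28.6% to 39.4% of all genes) and 1 to 3 above (28.9% to 39.2%), and moved Ctla4 between -1.82 and 0.39. It kept the sign of the other 9 receptors, and none passed an adjusted p of 0.05.

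Genes above a log2 fold change of 1 numbered 744, and 1203 and 1254 with pseudocounts of 0.1 and 0.01, 1408 with T cell scaling, 349 with the covariate and 305 to 1314 with 1 library left out. Genes below -1 numbered 53, and in the same order 178, 197, 26, 108 and 59 to 263, with 34 under the filter of 5 FPKM and 97 under quantile normalization. The ratio Ctla4/Cd28 (-0.09) turned to 0.020 and 0.033 with the 2 smaller pseudocounts. With 1 library left out, ratios changed sign for Ctla4/Cd28 (-0.75 to 0.58), Lag3/Pdcd1 (-0.27 to 0.69), Cd160/Cd3e (-0.52 to 0.11), Lag3/Cd3e (-0.40 to 0.058) and Cd96/Cd3e (-0.22 to 0.050), and kept it for the other 7 pairs. The cause of these changes was not tested. Btla has no value under the filter of 5 FPKM.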
